A study of Mus musculus with 18 samples.

Results

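The clustered protocadherins are a family of cadherin-like cell surface proteins encoded by the tandem Pcdha, Pcdhb and Pcdhg gene clusters. All genes with a Pcdha, Pcdhb, Pcdhga, Pcdhgb or Pcdhgc symbol were taken from the tables, which gave 58 gene identifiers of 55153 in the RNA-seq tables. They carry 57 symbols, because 2 identifiers are both named Pcdha11. The alpha cluster was represented by 12 identifiers of alternate alpha genes, 2 of them for Pcdha11, and by 2 C-type genes. No identifier carried the symbol Pcdha10. The beta cluster was represented by 22 genes, and the gamma cluster by 12 gamma-A, 7 gamma-B and 3 C-type genes.

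Each alpha or gamma transcript starts at its own variable exon, which encodes the extracellular domain, and is spliced to constant exons shared by the whole cluster, whereas beta genes consist of a variable exon alone. In neurons the alternate isoforms are chosen stochastically by promoter activation that depends on CTCF and cohesin looping, and the C-type isoforms are expressed more uniformly. The proteins form recognition units on the cell surface that bind homophilically, and the family is known for neuronal self-avoidance, dendrite branching, synapse formation and interneuron survival.

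The samples were cerebral cortices of C57BL/6 mouse embryos at E15.5. Ctrl mice were wild type. F-cKO mice carried Emx1-Cre with Fto flox/flox, and M-cKO mice carried Emx1-Cre with Mettl3 flox/flox; Fto is an m6A demethylase and Mettl3 is the catalytic subunit of the m6A methyltransferase. RNA-seq and Ribo-seq were performed with 3 libraries per genotype each, 18 in all. Ribo-seq measures the ribosome-protected fragments of mRNA. Emx1-Cre acts in the excitatory lineage of the cortex, so interneurons, vessels, microglia and other cells of the tissue keep the floxed gene. The study describes its floxed lines as being of mixed C57/BL6 and 129 origin, and its control animals as littermates. In bulk tissue, fewer cells of a type and less RNA per cell cannot be told apart.

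The 3 clusters lie in tandem on chromosome 18 of mm10, with alpha at 36930285 to 37188897, beta at 37264998 to 37521419 and gamma at 37661775 to 37841873. In the RefSeq annotation of GRCm38.p6 the span of every alpha gene overlaps those of 12 other alpha symbols, and every gamma gene overlaps 21 other gamma genes, because each span runs from the variable exon to the shared constant exons. Spans were 22328 to 180096 bases for gamma genes. No beta gene overlapped another member, and their spans were 2340 to 5271 bases. Reads from the shared constant exons cannot have been counted for every member: Pcdha4 had 1 to 4 reads per RNA-seq library and Pcdhga10 had 0 or 1, although both carry those exons. Gm37013, a readthrough locus annotated from the alpha to the gamma cluster, had 0 reads in every RNA-seq library. How the deposited counts treated reads in shared exons, reads matching several beta paralogs and strand is not given in the sources used here, so values of neighbouring isoforms are uncertain to that extent. Pcdhgb8 is annotated as a transcribed pseudogene. The sequences of the members are not shown here.

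The depth of the libraries was 18504094 to 22592406 counted reads in RNA-seq and 10973699 to 35853227 fragments in Ribo-seq. Members were covered by few reads, with a median over the 58 members of 101 reads per RNA-seq library and 44.1 fragments per Ribo-seq library. In F-cKO, Fto footprints were 2.11 to 4.04 RPKM (footprints per kilobase, scaled to library size) against 17.6 to 25.9 RPKM in Ctrl, and Fto RNA was 3.26, 7.56 and 2.43 FPKM (fragments per kilobase, scaled to library size) against 8.37 to 11.2 FPKM. Replicate 2 of the F-cKO RNA-seq libraries was thus nearer to the lowest Ctrl library than to the other F-cKO libraries. In M-cKO, Mettl3 footprints were 6.02 to 6.78 RPKM against 9.16 to 9.93 RPKM in Ctrl, while Mettl3 RNA was higher, at 7.82 to 8.61 FPKM against 5.07 to 6.43 FPKM. The deposited values cover the whole gene and include exons outside the deleted part, so the Mettl3 RNA value does not check the deletion. F-cKO replicate 2 of Ribo-seq stood apart: it had the lowest depth, its 9 cortical neuron markers summed to 1932 RPKM against at least 3596 RPKM in the other libraries, and its 5 endothelial markers summed to 74.6 RPKM against at most 7.76 RPKM. Median changes of F-cKO footprints and TE are given with and without it.

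In Ctrl cortex the 58 members had a median RNA level of 0.948 FPKM. Pcdhgc3, a gamma C-type isoform, had the highest level of all members, at 9.15, 8.04 and 8.33 FPKM. Pcdhb20 was next at 4.12 ± 0.470 FPKM (SD, n = 3), followed by Pcdhb17 at 3.72 ± 0.368 FPKM. Pcdhb20 was above Pcdhb17 within each Ctrl library, but their ranges overlapped. By reads the order was reversed, with 13.4% of the beta cluster for Pcdhb17 and 11.3% for Pcdhb20. Pcdhgc3 was above both genes in every Ctrl library, and it held 25.8% ± 1.22 of the reads of the gamma cluster.

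The other C-type isoforms were spread over a wide range. Pcdhgc4, an isoform required for the survival of cortical interneurons, was at 2.59 ± 0.135 FPKM (SD, n = 3). Pcdhac2 was at 1.76 ± 0.306 FPKM and held 24.8% ± 2.13 of the reads of the alpha cluster. Pcdhgc5 and Pcdhac1 were low, at 0.347 ± 0.0357 and 0.215 ± 0.0643 FPKM. Pcdhgb6 was the highest gamma-B gene at 2.99 ± 0.675 FPKM, Pcdhga11 the highest gamma-A gene at 2.62 ± 0.0308 FPKM and Pcdha12 the highest alternate alpha gene at 1.00 ± 0.0948 FPKM, which does not differ from Pcdha9, at 0.977 ± 0.0438 FPKM, beyond their spread.

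**Figure D1:**
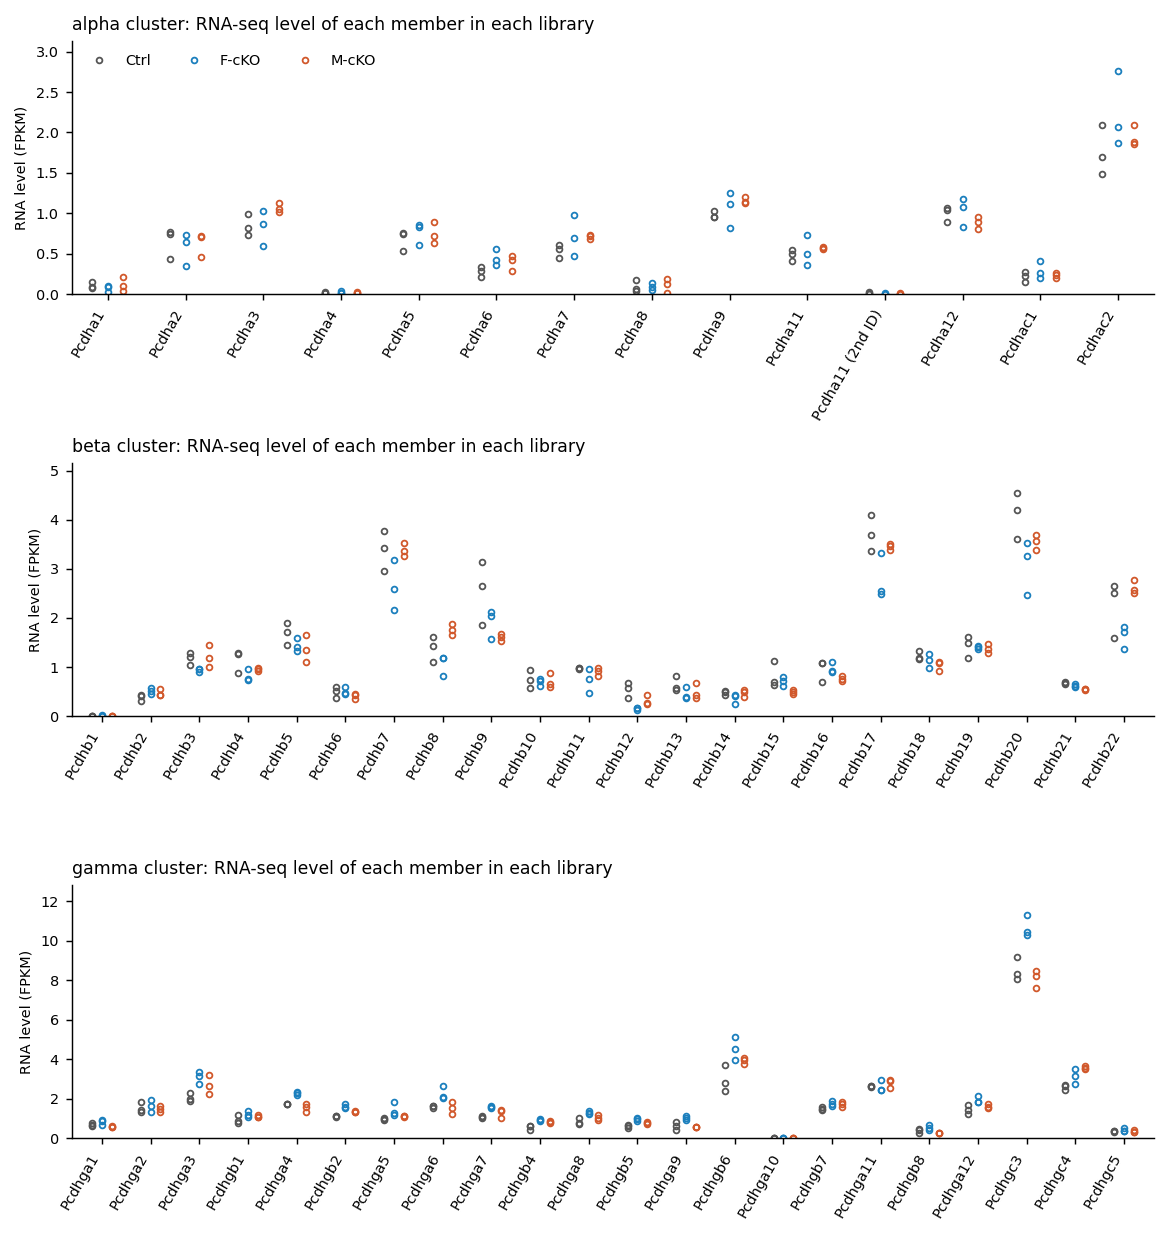
RNA level in FPKM of each clustered protocadherin in Ctrl, F-cKO and M-cKO cortex, with genes in cluster order and separate panels for the alpha, beta and gamma clusters; points are libraries (3 per genotype). Pcdhgc3 is the highest gene in all 3 genotypes, the gamma genes of F-cKO sit mostly above those of Ctrl, and Pcdha4, Pcdhb1 and Pcdhga10 lie near 0.

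Near-zero members were found in every cluster. Pcdhb1 had 1 RNA-seq read over all 9 libraries, Pcdhga10 had 5, the second Pcdha11 identifier (ENSMUSG00000102206) had 14 and Pcdha4 had 21. No change was tested for them in the comparison of F-cKO with Ctrl.

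By footprint density the order was different. In Ctrl, Pcdhgc3 was again highest at 3.85, 3.75 and 3.82 RPKM, and Pcdhgb6 was next at 2.33, 3.72 and 2.24 RPKM. These ranges do not overlap, although the highest Pcdhgb6 library came close to the lowest Pcdhgc3 library. Pcdhgc4 was at 2.17 ± 0.266 RPKM (SD, n = 3), with libraries that overlap those of Pcdhgb6, and was above it in Ctrl replicate 1 at 2.48 RPKM. Pcdhga12 was the highest gamma-A gene at 1.62 ± 0.0795 RPKM with libraries that overlap those of Pcdhga3, and Pcdhac2 was at 1.07 ± 0.133 RPKM. The highest beta gene was Pcdhb17 at 1.09 ± 0.178 RPKM, within the spread of Pcdhb15 at 0.998 ± 0.245 RPKM, and the highest alternate alpha gene was Pcdha9 at 0.978 ± 0.190 RPKM.

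The ratio of mean footprint density (RPKM) to mean RNA level (FPKM) in Ctrl, a translational efficiency (TE) level given here without a test, was low for beta genes. Its median was 0.292 for 19 beta genes, 0.724 for 10 alpha genes and 0.676 for 20 gamma genes, compared with 0.886 over 13208 genes. Of the 19 beta genes, 16 were below that all-gene median. Pcdhb22 had the lowest TE level of all members at 0.0780, and Pcdhb20, the beta gene with the highest mean FPKM, had 0.116. Pcdhb2 and Pcdhb15, at 1.25 and 1.22, were above the all-gene median. Both assays count reads over gene models whose reference is not stated. The gene length behind the FPKM values was 6680 bases for Pcdhb22 and 3597 for Pcdhb20, with RefSeq spans of 3067 and 3397 bases. The part of gene length and of read assignment among paralogs in these values was not tested.

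The comparison of F-cKO with Ctrl asks how loss of the m6A demethylase affects these transcripts. Of 53 members tested, 10 rose and all 10 were among the 21 gamma genes tested, against 11.5% of all 16944 genes called higher. The risers were Pcdhga3, Pcdhga4, Pcdhga6, Pcdhga7, Pcdhga8, Pcdhgb2, Pcdhgb4, Pcdhgb5, Pcdhgb6 and Pcdhgc3. A single member fell, Pcdhb12, against 9.57% of all genes called lower. Over the 21 gamma genes tested the median log2 fold change was 0.48 and 20 had a positive value, compared with a median of -0.01 over all genes, of which 48.4% were positive. These counts describe the cluster, and no test of the cluster as a whole was made. In 15 of these 21 genes the 3 F-cKO libraries were all above the 3 Ctrl libraries, whereas 22.0% of all genes were separated in that direction.

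Pcdhgb6 was measured at 2.82, 3.74 and 2.42 FPKM in Ctrl and at 5.10, 4.50 and 3.96 FPKM in F-cKO. All F-cKO libraries were above all Ctrl libraries, and the log2 fold change was 0.58 ± 0.16 (SE; edgeR adjusted P = 0.0299). Pcdhga3 was measured at 2.29, 1.91 and 1.98 FPKM in Ctrl and at 3.35, 3.16 and 2.74 FPKM in F-cKO, without overlap, a log2 fold change of 0.57 ± 0.13 (edgeR adjusted P = 0.0137). The most abundant member, Pcdhgc3, rose less. Its 3 F-cKO libraries, at 11.3, 10.3 and 10.4 FPKM, were above the 9.15, 8.04 and 8.33 FPKM of Ctrl, a log2 fold change of 0.32 ± 0.07 (edgeR adjusted P = 0.0159). The largest increase among the called genes was that of Pcdhgb4, from 0.564 ± 0.123 to 0.929 ± 0.0389 FPKM (SD, n = 3), a log2 fold change of 0.70 ± 0.20 (edgeR adjusted P = 0.0322).

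The remaining 6 called genes, gamma-A and gamma-B isoforms, were also fully separated from Ctrl. Pcdhgb5 went from 0.696, 0.616 and 0.508 FPKM to 0.895, 0.995 and 1.05 FPKM, a log2 fold change of 0.67 ± 0.17. Pcdhga7 went from 1.155, 1.039 and 1.075 FPKM to 1.57, 1.65 and 1.54 FPKM, at 0.53 ± 0.13, and Pcdhgb2 from 1.106, 1.082 and 1.149 FPKM to 1.53, 1.59 and 1.74 FPKM, at 0.53 ± 0.14. Pcdhga6 went from 1.59 ± 0.0397 to 2.26 ± 0.337 FPKM (SD, n = 3), at 0.50 ± 0.14, Pcdhga8 from 0.854 ± 0.160 to 1.305 ± 0.0974 FPKM, at 0.60 ± 0.18, and Pcdhga4 from 1.73 ± 0.0139 to 2.29 ± 0.0880 FPKM, at 0.39 ± 0.12. The edgeR adjusted P of these 6 was between 0.0224 and 0.0417, with Pcdhga7 the smallest and Pcdhga8 the largest.

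Ordered by start, the 9 called alternate gamma genes lay between the third, Pcdhga3, and the 14th, Pcdhgb6, of the 22 gamma genes, but they did not form an unbroken run. Pcdhgb1, Pcdhga5 and Pcdhga9, within that stretch, were tested and not called. The gamma genes before it, Pcdhga1 and Pcdhga2, were not called, nor were Pcdhgb7, Pcdhga11, Pcdhgb8 and Pcdhga12 after it, although Pcdhga12 had a log2 fold change of 0.40 ± 0.14 with no overlap of libraries (edgeR adjusted P = 0.0630). Pcdhga11 had a log2 fold change of -0.01 ± 0.12, with 2.59, 2.63 and 2.65 FPKM in Ctrl and 2.97, 2.46 and 2.44 FPKM in F-cKO. No test of position was made.

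**Figure D2:**
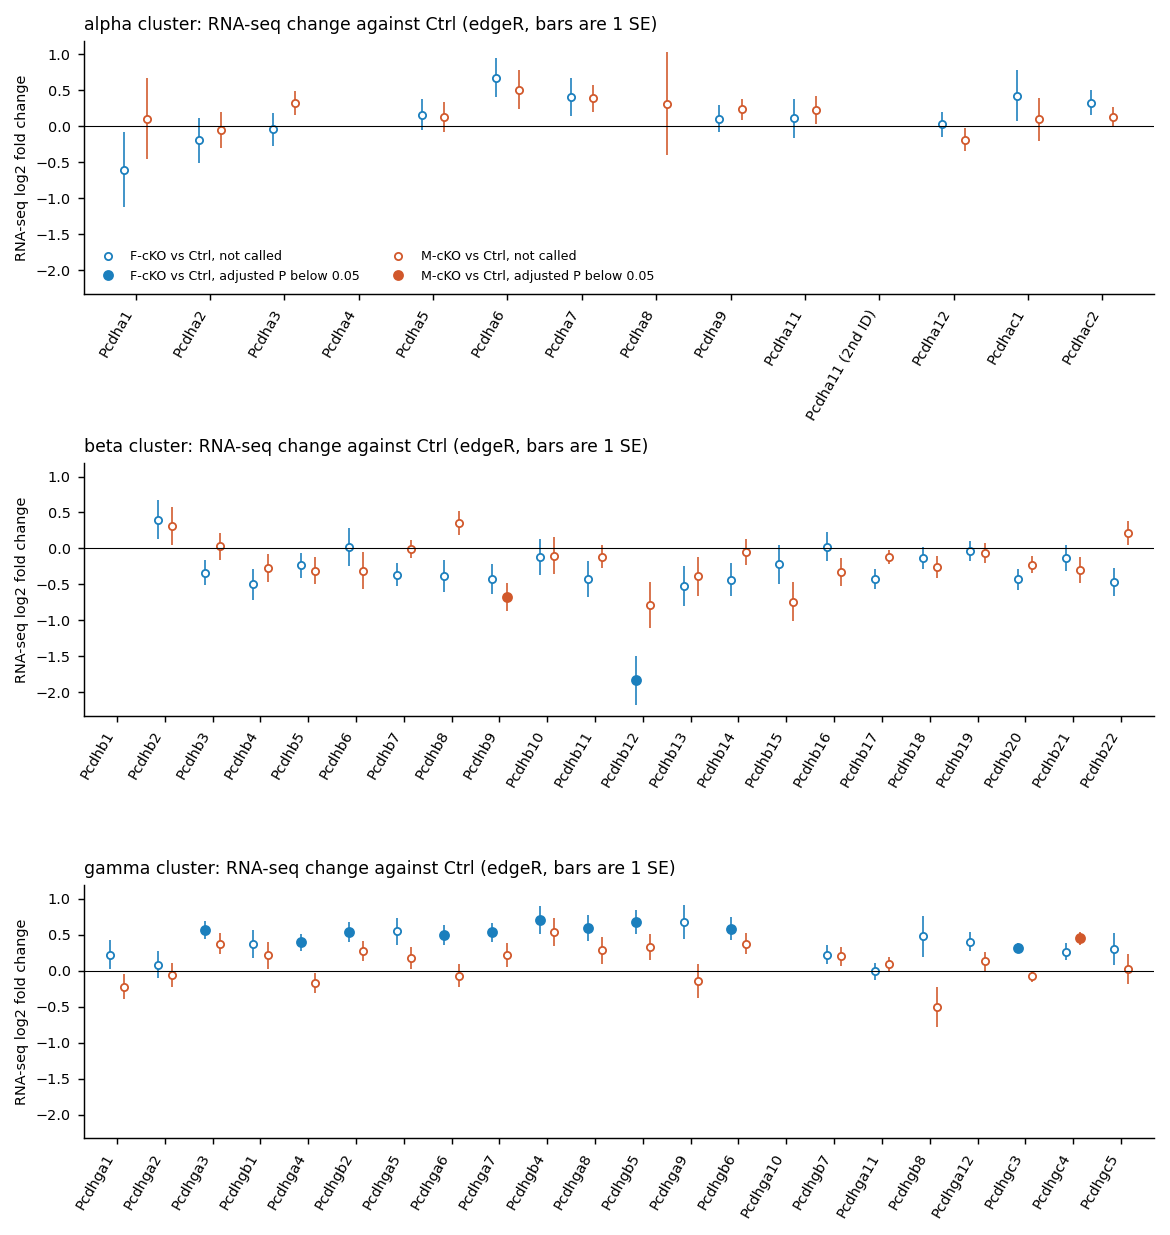
Log2 fold change of RNA against Ctrl (edgeR, ± SE, 3 against 3 libraries) for each tested member in cluster order, for F-cKO and M-cKO. In F-cKO 20 of 21 gamma genes are above 0 and 18 of 21 beta genes are below 0, while the M-cKO medians are 0.18 for gamma and -0.22 for beta genes.

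Beta transcripts moved less clearly. Of 21 beta genes tested, 18 had a negative log2 fold change, with a median of -0.36, and 6 had all F-cKO libraries below all Ctrl libraries, compared with 19.6% of all genes. Pcdhb12 was the exception that passed the test: it was at 0.677, 0.373 and 0.581 FPKM in Ctrl and at 0.128, 0.161 and 0.168 FPKM in F-cKO. Its libraries did not overlap, and it fell by 1.83 on the log2 scale (SE 0.34, edgeR adjusted P = 0.00740). Pcdhb17, the beta gene with the next smallest P, went from 3.72 ± 0.368 to 2.79 ± 0.469 FPKM (SD, n = 3), a log2 fold change of -0.43 ± 0.14 that missed the threshold (edgeR adjusted P = 0.0504). Pcdhb20 went from 4.20, 3.62 and 4.55 FPKM to 3.52, 3.26 and 2.47 FPKM, separated but not called (-0.43 ± 0.15, edgeR adjusted P = 0.0695).

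Alpha transcripts did not move together. None of the 11 alpha genes tested was called, against 11.5% of all genes called higher and 9.57% called lower. A positive log2 fold change was found in 8 of the 11, against 48.4% of all genes, and the alpha median was 0.11. Pcdha6 had the smallest P of the 11 alpha genes and the largest value. It was at 0.333, 0.281 and 0.209 FPKM in Ctrl and at 0.552, 0.419 and 0.362 FPKM in F-cKO, without overlap (log2 fold change 0.67 ± 0.27, edgeR adjusted P = 0.102). Pcdha7, at 0.41 ± 0.27, and Pcdha1, at -0.60 ± 0.52, overlapped Ctrl. Pcdhac2 was at 2.09, 1.49 and 1.70 FPKM in Ctrl and at 2.76, 2.07 and 1.86 FPKM in F-cKO, which overlap (log2 fold change 0.33 ± 0.18, edgeR adjusted P = 0.208). Among the C-type isoforms, Pcdhgc4 had a log2 fold change of 0.27 ± 0.11 (edgeR adjusted P = 0.126), Pcdhgc5 had 0.30 ± 0.23 and Pcdhac1 had 0.42 ± 0.35.

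Summed over each cluster, the gamma genes took 193, 186 and 174 CPM (reads scaled to library size) in Ctrl and 253, 232 and 231 in F-cKO. The beta genes took 140, 113 and 144 CPM in Ctrl and 115, 103 and 95.5 in F-cKO. The gamma sums were separated, while the beta sums of Ctrl replicate 2 and F-cKO replicate 1 overlapped. The ratio of gamma to beta reads within a library was 1.38, 1.64 and 1.21 in Ctrl, and 2.20, 2.24 and 2.42 in F-cKO, so that every F-cKO library lay above every Ctrl library. The members as a whole took 359 ± 21.7 CPM in Ctrl and 390 ± 29.3 in F-cKO (SD, n = 3), a difference within the spread.

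**Figure D3:**
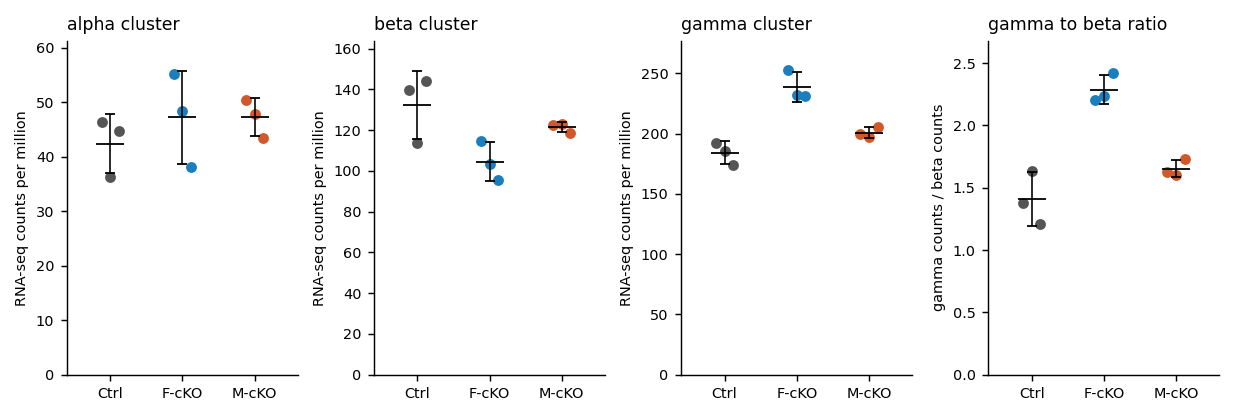
RNA-seq CPM summed over the alpha, beta and gamma clusters, and the ratio of gamma to beta reads, by genotype; points are libraries and bars are means with SD (n = 3). The gamma sum and the gamma-to-beta ratio of every F-cKO library lie above all Ctrl libraries, and the M-cKO ratios of 1.60 to 1.73 overlap the highest Ctrl ratio of 1.64.

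The number of gamma genes called in F-cKO depended on single libraries. It was 0 without Ctrl replicate 3, 1 without F-cKO replicate 2, 3 without Ctrl replicate 2, 5 without F-cKO replicate 1, and 6 without either Ctrl replicate 1 or F-cKO replicate 3. The share of all genes called higher fell in these fits too, from 11.5% to 5.69% without Ctrl replicate 3, 6.62% without F-cKO replicate 2, and between 8.59% and 10.8% in the other 4 fits. F-cKO replicate 2 is the library with Fto RNA of 7.56 FPKM. In these fits 19 to 21 of 21 gamma genes kept a positive log2 fold change with medians of 0.38 to 0.51, and Pcdhb12 passed the test in each of them. With a replicate block 3 gamma genes were called, beside 7.52% of all genes higher, with a median of 0.49. The beta median was -0.22 without F-cKO replicate 2, with 2 of 21 positive, and the alpha median was 0.01 without Ctrl replicate 2 and 0.27 without F-cKO replicate 3.

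Cell type markers differed between these groups too, beside 11.5% of all genes called higher and 9.57% called lower. In F-cKO 3 of 4 intermediate progenitor markers rose, with a summed level of 216 to 268 FPKM against 121 to 192 FPKM in Ctrl. All 4 oligodendrocyte lineage markers fell, from sums of 14.98 to 33.1 FPKM to 7.97 to 13.1 FPKM, and 1 of 5 endothelial markers fell, from sums of 44.9 to 49.0 FPKM to 32.8 to 38.0 FPKM. Of 9 cortical neuron markers 3 rose and 2 fell, with sums of 1949 to 2111 FPKM in F-cKO and 2098 to 2254 FPKM in Ctrl. All 5 markers of meninges and fibroblasts had negative values and 2 of them fell, Col1a1 and Col1a2, with list sums of 10.5 to 20.3 FPKM in Ctrl and 2.35 to 8.98 FPKM in F-cKO. Of 7 radial glia markers 4 rose and 2 fell, with overlapping sums of 711 to 775 FPKM in F-cKO and 756 to 844 FPKM in Ctrl. Of 3 Cajal-Retzius markers 1 rose, Reln, and the sums were 21.1 to 23.4 FPKM against 15.7 to 18.4 FPKM. Of 7 interneuron markers 3 rose, with overlapping sums. Of 5 erythroid markers 1 fell, with sums of 324 to 401 FPKM against 431 to 795 FPKM, while microglia and choroid plexus had no called marker and overlapping sums. No marker of these lists was at 0 in all libraries of either group. A serotonergic list had 1 of 3 markers tested, which fell, and in each group 1 marker was at 0 in all libraries. Their part in the protocadherin values was not tested.

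The comparison of M-cKO with Ctrl asks the same of the m6A methyltransferase. Of 54 members tested, 1 rose and 1 fell, against 15.5% and 14.1% of all 16968 genes. Pcdhgc4 rose, from 2.64, 2.44 and 2.70 FPKM in Ctrl to 3.67, 3.49 and 3.54 FPKM in M-cKO. The libraries were fully separated, with a log2 fold change of 0.45 ± 0.09 (edgeR adjusted P = 0.00426). Its share of the reads of the gamma cluster was 10.02% ± 0.385 in M-cKO and 8.03% ± 0.662 in Ctrl (SD, n = 3). Pcdhgc4 passed the test in every alternative fit, including those that left out a library. In F-cKO, Pcdhgc4 was at 3.53, 3.15 and 2.75 FPKM, with a mean between those of the other genotypes.

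Pcdhb9 fell in M-cKO, from 2.66, 1.85 and 3.15 FPKM to 1.67, 1.60 and 1.54 FPKM. The groups did not overlap, and the log2 fold change was -0.67 ± 0.19 (edgeR adjusted P = 0.0216). The call was lost without Ctrl replicate 1, Ctrl replicate 3, M-cKO replicate 2 or M-cKO replicate 3, with log2 fold changes between -0.49 and -0.67 in those fits.

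By cluster, M-cKO values lay on both sides of Ctrl. Of 21 gamma genes 14 had a positive log2 fold change, with a median of 0.18, and of 21 beta genes 17 had a negative one, with a median of -0.22. Of 12 alpha genes 10 were positive, with a median of 0.18. Without Ctrl replicate 2, 6 of 12 alpha genes were positive with a median of 0.01, without Ctrl replicate 1 the alpha median was 0.27, and without Ctrl replicate 3 the beta median was -0.14. Groups were separated upwards in 13 of 54 members and downwards in 5, compared with 23.3% and 21.5% of all genes. The C-type genes Pcdhac1, Pcdhac2, Pcdhgc3 and Pcdhgc5 had log2 fold changes of 0.10 ± 0.30, 0.14 ± 0.14, -0.08 ± 0.08 and 0.02 ± 0.21, and none was called. Among uncalled genes with the smallest P, Pcdhb15 had a log2 fold change of -0.74 ± 0.27, Pcdhb12 -0.79 ± 0.32, Pcdhgb4 0.54 ± 0.20, Pcdhgb6 0.38 ± 0.14 and Pcdhga3 0.37 ± 0.15 (edgeR adjusted P between 0.0597 and 0.0831). The alpha genes Pcdha7, Pcdha3 and Pcdha6 had 0.39 ± 0.19, 0.33 ± 0.17 and 0.51 ± 0.27. For Pcdhgc3 the M-cKO values of 8.22, 7.61 and 8.45 FPKM overlapped those of Ctrl.

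All 7 interneuron and ganglionic eminence markers rose in M-cKO, beside 15.5% of all genes called higher and 14.1% lower, with summed RNA levels of 121 to 164 FPKM against 85.9 to 87.1 FPKM in Ctrl. These cells do not pass through the Emx1 lineage. Of 7 radial glia markers 2 rose and 2 fell, and the median log2 fold change was 0.10, with 4 positive. Their sums, which weigh abundant genes most, were 552 to 594 FPKM against 756 to 844 FPKM. Of 4 intermediate progenitor markers 1 rose, with sums of 209 to 225 FPKM against 121 to 192 FPKM, and of 3 Cajal-Retzius markers 2 rose, with sums of 20.2 to 22.2 FPKM against 15.7 to 18.4 FPKM. Of 9 cortical neuron markers 4 rose and 3 fell, 1 of 5 choroid plexus markers rose and 1 of 4 oligodendrocyte lineage markers fell, each list with overlapping sums, and no endothelial, microglial, meningeal or erythroid marker was called. The 1 serotonergic marker tested fell, with list sums of 0.0718 to 0.215 FPKM against 0.470 to 0.642 FPKM in Ctrl, where 1 of the 3 was at 0 in all libraries. No marker of the other lists was at 0 in all libraries of a group. The part of these cell types in the change of Pcdhgc4 was not tested.

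Set directly against each other, M-cKO and F-cKO differed in 7 of 54 members, with 2 higher in M-cKO against 13.1% of all genes and 5 lower against 14.3%. This comparison uses no Ctrl library, and 6 members were separated upwards and 16 downwards, against 21.7% and 21.8% of all genes. The members lower in M-cKO were the gamma genes Pcdhga4, Pcdhga6, Pcdhga9, Pcdhgb8 and Pcdhgc3, and the members higher in M-cKO were the beta genes Pcdhb8 and Pcdhb22. Of 21 gamma genes 19 were negative, with a median log2 difference of -0.29. Of 21 beta genes 12 were positive, with a median of 0.13, and of 12 alpha genes 6 were positive, with a median of 0.04. Pcdhgc3 was at 8.22, 7.61 and 8.45 FPKM in M-cKO and at 11.3, 10.3 and 10.4 FPKM in F-cKO, without overlap (log2 difference -0.41 ± 0.07, edgeR adjusted P = 0.00272). Pcdhb22 was at 2.57, 2.50 and 2.77 FPKM in M-cKO and at 1.72, 1.82 and 1.36 FPKM in F-cKO, also without overlap (0.67 ± 0.13, edgeR adjusted P = 0.00416). Pcdhb8 was at 1.88, 1.66 and 1.75 FPKM in M-cKO and at 1.19, 0.814 and 1.18 FPKM in F-cKO, while the Ctrl values of 1.42, 1.096 and 1.61 FPKM overlapped those of F-cKO. Leaving out a library gave between 1 and 4 members higher and between 2 and 5 lower. The count higher was 4 without F-cKO replicate 1 and 1 without F-cKO replicate 2 or M-cKO replicate 1, beside 13.5%, 8.38% and 10.2% of all genes. The count lower was 3 without M-cKO replicate 1 and 2 without M-cKO replicate 2, beside 8.69% and 8.7% of all genes. In the same comparison 6 of 7 interneuron, 4 of 5 erythroid, 3 of 5 meningeal, 2 of 5 choroid plexus, 2 of 4 oligodendrocyte lineage, 1 of 5 endothelial and 1 of 5 microglial markers were higher in M-cKO, 4 of 7 radial glia, 4 of 9 cortical neuron and 2 of 4 intermediate progenitor markers were lower, and 13 of 23 cluster regulators were lower. Of the radial glia markers, the cortical neuron markers and the regulators, 1 each was higher. Their part in the protocadherin differences was not tested.

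The footprint values of F-cKO depended on 1 library. No member was called of 49 tested (edgeR), and 0.00% of all 14335 genes were called in either direction, with 0 members at an unadjusted P below 0.05 against 1.58% of all genes higher and 0.635% lower. DESeq2 called 0 members as well. The F-cKO and Ctrl libraries were separated for 0 of the 49 members, against 3.03% of all genes upwards and 4.13% downwards. The log2 fold changes were nevertheless high, with a median of 0.81 and 47 of 49 positive, compared with a median of 0.05 over all genes. F-cKO replicate 2 held the highest value of all 9 libraries for 47 of the 49 members, compared with 25.1% of all genes. Relative to the mean of Ctrl, its median log2 ratio was 1.78 over the members and -0.21 over all genes, whereas F-cKO replicates 1 and 3 had member medians of -0.48 and -0.04.

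Pcdhgb6 shows the pattern, with 2.33, 3.72 and 2.24 RPKM in Ctrl and 2.06, 9.75 and 2.29 RPKM in F-cKO. Pcdhgc3 was at 2.33, 7.96 and 3.58 RPKM in F-cKO, on both sides of its Ctrl values. Without F-cKO replicate 2 the median log2 fold changes were -0.12 for gamma, -0.45 for beta and -0.31 for alpha genes, with 6 of 20, 3 of 19 and 1 of 10 positive, compared with 1.03, 0.80 and 0.29 with it. The 12 non-clustered protocadherins were also high in that library, with a sum of 69.2 RPKM against 15.3 to 24.1 RPKM in the other 8. Its 3 Cajal-Retzius markers summed to 42.7 RPKM against 8.35 to 11.2 RPKM. The part of cell composition and depth in these values was not tested.

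**Figure D4:**
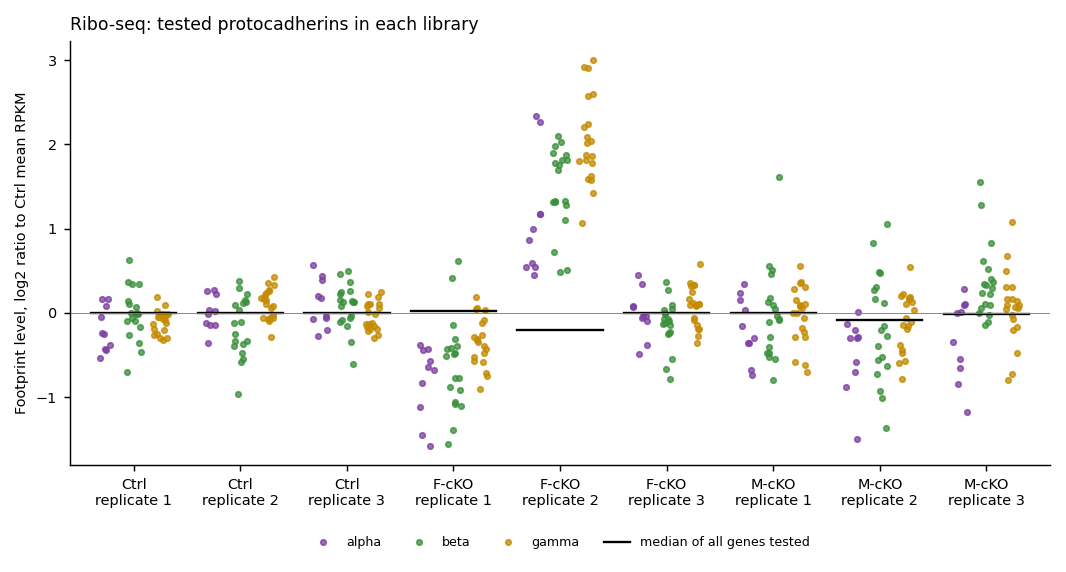
Log2 ratio of each tested member's footprint density to the Ctrl mean RPKM in each of the 9 Ribo-seq libraries, coloured by cluster, with a black line at the median of all genes tested. F-cKO replicate 2 has a member median of 1.78 with the all-gene median at -0.21, and the other 8 libraries have member medians between -0.48 and 0.10.

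The TE of members in F-cKO, tested as the change of footprints beyond that of RNA, was called for no member (edgeR; 0.00% of all 13225 genes in either direction, and 4.36% and 3.88% at an unadjusted P below 0.05). Pcdhb8 and Pcdhb20 were the members with an unadjusted P below 0.05, both with adjusted P = 0.585. DESeq2 called 0 members. The median of gamma genes was 0.55 with all libraries, with 20 of 20 positive, and -0.56 without Ribo-seq F-cKO replicate 2, with 0 of 20 positive. For beta genes it was 0.77 with 19 of 19 positive, and -0.11 with 7 of 19 positive without that library. For alpha genes it was 0.11 with 6 of 10 positive, and -0.51 with 1 of 10 positive without it.

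In M-cKO footprints, 1 of 49 members rose and 1 fell, against 7.13% and 7.50% of all 14314 genes. Pcdhgc3 fell. Its footprint density was 3.85, 3.75 and 3.82 RPKM in Ctrl and 2.33, 2.20 and 2.20 RPKM in M-cKO. The replicates of each group lay close together and far from the other group, and Pcdhgc3 fell by 0.75 on the log2 scale (SE 0.11, edgeR adjusted P = 0.0117). Its share of the footprints of the gamma cluster was 17.9% ± 1.29 in Ctrl and 11.3% ± 0.618 in M-cKO (SD, n = 3), while the gamma cluster as a whole was at 95.7 ± 7.69 and 91.9 ± 6.80 CPM. The call was lost without Ctrl replicate 2 (log2 fold change -0.76, edgeR adjusted P = 0.0688). It was also lost when all 9 libraries, F-cKO replicate 2 included, shared a single fit (-0.73, edgeR adjusted P = 0.422). That single fit called 0.202% of all genes higher and 0.0419% lower, against 7.13% and 7.50% in the main test, so the loss there was not particular to Pcdhgc3.

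Pcdhgc3 RNA overlapped between Ctrl and M-cKO, and its TE fell in M-cKO. The log2 change of TE was -0.62 ± 0.12 (edgeR adjusted P = 0.0204), and Pcdhgc3 was the only member called of 49 by edgeR, against 1.65% of 13208 genes higher and 1.41% lower. The TE level of Pcdhgc3 was 0.447 in Ctrl and 0.277 in M-cKO. The size of this change was between -0.58 and -0.68 in all fits that left out a library, but adjusted P was between 0.0533 and 0.0677 without RNA-seq Ctrl replicate 2 or 3, RNA-seq M-cKO replicate 1 or 3, or Ribo-seq Ctrl replicate 2. The call was also lost with a replicate block (-0.62, edgeR adjusted P = 0.0619) and when all 18 libraries shared a single fit (-0.63, edgeR adjusted P = 0.695). Over all genes the block called 93 higher and 70 lower, against 218 and 186 in the main test. The single fit called 6 and 2 of 13264 genes, so few genes of any kind kept a call there. Footprints of marker genes moved beside these values. Radial glia markers summed to 1034 to 1463 RPKM in M-cKO against 1900 to 2146 RPKM in Ctrl. Of these 7 markers 1 was called higher and 1 lower, and the median log2 fold change was -0.04. Interneuron markers summed to 62.6 to 120.0 RPKM against 38.2 to 57.1 RPKM, with 3 of 7 higher, and intermediate progenitor markers to 106 to 142 RPKM against 73.9 to 99.5 RPKM, with 0 of 4 called (edgeR). Their part in the footprint and TE values of the members was not tested.

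Pcdhb8 footprints rose in M-cKO, from 0.328, 0.228 and 0.470 RPKM to 1.05, 0.709 and 1.00 RPKM. The groups were separated, with a log2 fold change of 1.43 ± 0.32 (edgeR adjusted P = 0.0298). The call was lost without any 1 of the 3 Ctrl libraries and without M-cKO replicate 1. Values in those fits were between 1.21 and 1.75, with edgeR adjusted P between 0.05005 and 0.106. It was also lost with all 9 libraries in a single fit (edgeR adjusted P = 0.161). That fit called 0.202% of all genes higher, against 7.13% in the main test. Pcdhb8 RNA had a log2 fold change of 0.35 ± 0.17 in M-cKO (edgeR adjusted P = 0.149), and its TE change of 1.14 ± 0.36 missed the threshold (edgeR adjusted P = 0.0928).

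**Figure D5:**
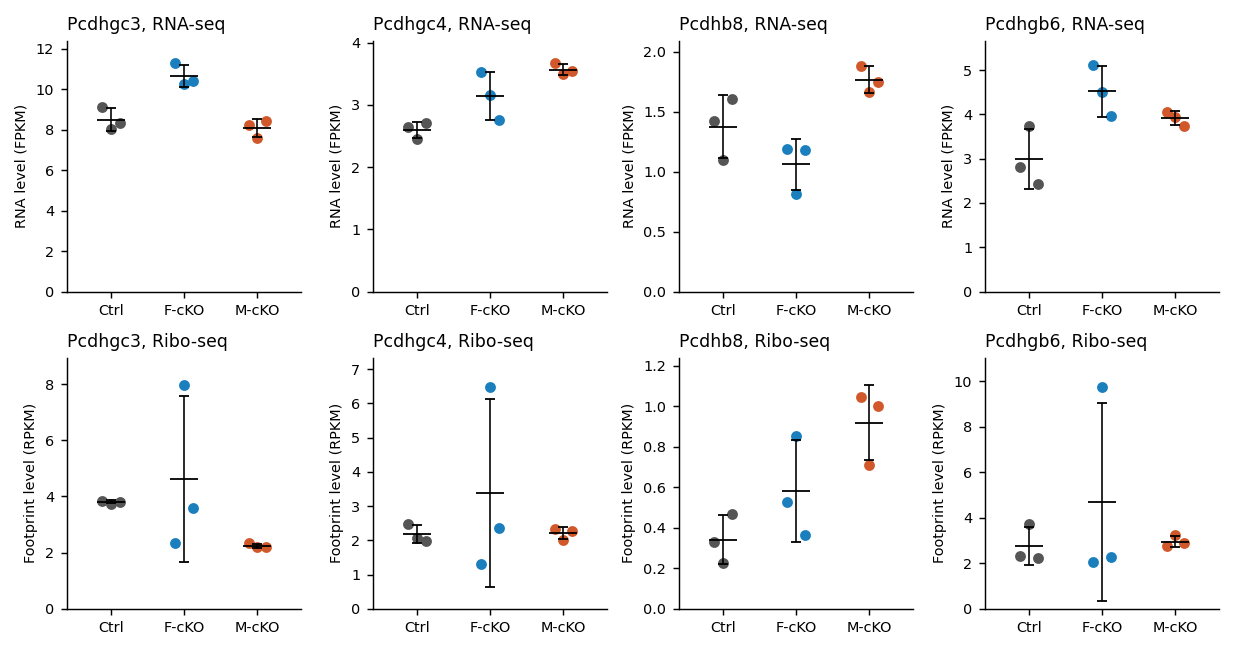
RNA level (FPKM, top) and footprint density (RPKM, bottom) of Pcdhgc3, Pcdhgc4, Pcdhb8 and Pcdhgb6 by genotype; points are libraries and bars are means with SD (n = 3). Pcdhgc3 footprints of M-cKO (2.20 to 2.33 RPKM) lie below all Ctrl libraries while its RNA overlaps Ctrl, Pcdhgc4 RNA is higher in M-cKO, and the F-cKO footprint bars are raised by replicate 2.

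Pcdhgc4, whose RNA rose in M-cKO, had no called change in footprints. Its footprints were at 2.48, 2.07 and 1.97 RPKM in Ctrl and at 2.33, 2.02 and 2.28 RPKM in M-cKO, which overlap (log2 fold change 0.03 ± 0.14, edgeR adjusted P = 0.891). The TE change was -0.37 ± 0.16 (edgeR adjusted P = 0.206). Over the clusters, M-cKO footprints had a median log2 fold change of 0.02 for gamma, 0.03 for beta and -0.16 for alpha genes, with 9 of 20, 9 of 19 and 9 of 10 negative. Leaving out 1 library moved these medians to between -0.03 and 0.12 for gamma, -0.13 and 0.12 for beta, and -0.29 and -0.09 for alpha genes. Single members lay farther from 0. Pcdhga6 was at 0.831, 1.099 and 1.18 RPKM in Ctrl and at 0.693, 0.765 and 0.627 RPKM in M-cKO, without overlap (log2 fold change -0.56 ± 0.23, edgeR adjusted P = 0.131). Of the 49 members 5 were separated upwards and 7 downwards, against 17.6% and 20.4% of all genes. The alpha genes with the smallest P were Pcdha11, at -0.72 ± 0.25 (edgeR adjusted P = 0.0930), and Pcdha12, at -0.84 ± 0.36 (edgeR adjusted P = 0.149).

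No alpha or beta gene was called by TE in M-cKO (edgeR), although 1 beta gene was called higher without Ribo-seq Ctrl replicate 3 and 2 were with DESeq2. DESeq2 called 567 of 13208 genes higher, against 218 in the main test. The median log2 change of TE was 0.33 for 19 beta genes, 14 of them positive, and -0.42 for 10 alpha genes, 9 of them negative, compared with 0.00 over all genes. For 20 gamma genes the median was -0.13, with 9 positive. Without Ribo-seq M-cKO replicate 3 the beta median was 0.16, with 12 of 19 positive, and without Ribo-seq Ctrl replicate 2 it was 0.20, with 15 of 19 positive. Pcdhb20, whose TE level was 0.116 in Ctrl and 0.198 in M-cKO, had a log2 change of 0.85 ± 0.25 (edgeR adjusted P = 0.0800). When M-cKO footprints were set against those of F-cKO, none of 49 members was called (edgeR; 0.00% of all genes in either direction). At an unadjusted P below 0.05, 0 members were higher against 4.98% of all genes and 1 was lower against 3.11%, and DESeq2 called 0 members. No member was separated upwards and 3 were separated downwards, against 8.05% and 5.64% of all genes. The medians turned on F-cKO replicate 2. They were -1.12 for gamma, -0.57 for beta and -0.52 for alpha genes with it, with 0 of 20, 1 of 19 and 1 of 10 positive. Without it they were 0.12, 0.54 and 0.11, with 14 of 20, 18 of 19 and 8 of 10 positive, and no member was called (edgeR).

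The list of cluster regulators held 23 genes of CTCF, cohesin, DNA or histone methylation, and other silencing or DNA-binding factors. The last were Smchd1, Lrif1, Wiz, Zfp143 and Rest. In F-cKO RNA 16 of 23 rose and none fell, against 11.5% and 9.57% of all genes, all 23 log2 fold changes were positive, and their median was 0.31. Those with the smallest P were Nipbl, the cohesin loader, at 0.53 ± 0.07, Wapl, which releases cohesin from chromatin, at 0.43 ± 0.06, and the cohesin subunits Stag2, at 0.41 ± 0.06, and Smc1a, at 0.32 ± 0.06 (edgeR adjusted P between 0.00338 and 0.00580). Ctcf itself rose by 0.21 ± 0.06 (edgeR adjusted P = 0.0292). Their summed level was 371 to 386 FPKM in F-cKO against 308 to 323 FPKM in Ctrl. In M-cKO RNA 6 of 23 rose and 1 fell, against 15.5% and 14.1% of all genes, with a median of 0.07. Setdb1, a histone methyltransferase that acts at the protocadherin locus, rose by 0.59 ± 0.06 (edgeR adjusted P = 9.863e-05), the DNA methyltransferase Dnmt3a by 0.48 ± 0.07 and the DNA demethylase Tet3 by 0.44 ± 0.08, while the cohesin loader subunit Mau2 fell by 0.26. In M-cKO footprints 2 of 23 rose, Dnmt3a and Tet3, and none fell, against 7.13% and 7.50% of all genes. By TE 1 of 23 was called, Setdb1, at -0.58 ± 0.11 (edgeR adjusted P = 0.0178), against 1.65% of all genes higher and 1.41% lower. No link between these values and the members was tested.

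Binding partners and signalling proteins of the protocadherins gave mixed results. Of 22 such genes 2 rose and 3 fell in F-cKO RNA, against 11.5% and 9.57% of all genes, and 3 rose and 6 fell in M-cKO RNA, against 15.5% and 14.1%. Ptk2b, the kinase PYK2 whose activity gamma and alpha protocadherins inhibit, fell by 2.28 in F-cKO (SE 0.31, edgeR adjusted P = 0.00345) and by 1.89 in M-cKO (SE 0.27, edgeR adjusted P = 0.000503). Both comparisons use the same Ctrl libraries. Nckap1, a subunit of the WAVE complex, which binds the tail of some protocadherins, fell by 0.39 in M-cKO RNA and by 0.72 in M-cKO footprints (edgeR adjusted P = 0.00129 and 0.0139). In M-cKO footprints 0 of 21 tested partners rose and 4 fell, Nckap1, Ptk2b, Prkca and Nlgn1, against 7.13% and 7.50% of all genes.

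The non-clustered protocadherins, encoded by separate genes outside these clusters, also moved in both directions. In F-cKO RNA 3 of 12 rose and 1 fell, against 11.5% and 9.57% of all genes, with a median log2 fold change of -0.03. In M-cKO RNA 3 of 12 rose and 4 fell, against 15.5% and 14.1% of all genes, with a median of -0.12. Pcdh20 fell by 1.11 in M-cKO (SE 0.16, edgeR adjusted P = 0.000476), Pcdh7 by 0.95 and Pcdh9 by 0.69, while Pcdh11x rose by 1.25 ± 0.29 (edgeR adjusted P = 0.00780). In M-cKO footprints Pcdh20 fell by 0.87 (SE 0.21, edgeR adjusted P = 0.0369) and no other of the 12 was called, against 7.50% of all genes lower and 7.13% higher.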

How the data were processed

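RNA-seq and Ribo-seq libraries of E15.5 cortices were grouped by genotype from the labels. For RNA-seq the authors aligned reads with HISAT2 2.0.5 and deposited read counts and FPKM per gene. For Ribo-seq the authors mapped fragments with TopHat2, counted them with HTSeq, and deposited counts and RPKM. The submitters' processing notes also name mm10 and DESeq2 1.14.1. In the Ribo-seq counts, 40490 genes, 9 members among them, were blank in most libraries and were left out of the main tests.

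Genes were filtered with filterByExpr (minimum count 10, minimum total 15), scaled by TMM and tested with the quasi-likelihood test of edgeR 4.0.16 in R 4.3.3, over the libraries of each comparison. Changes of TE were tested as an assay by genotype interaction over both assays. P values were adjusted by Benjamini-Hochberg over all genes, with calls at 0.05. The scripts were tested on simulated data. FPKM and RPKM were used only for levels and for limma 3.58.1 as an alternative. DESeq2 1.42.0, RLE scaling, no filter, all libraries in a single fit, a replicate block, filled blank genes and leaving out each library were the other alternatives.

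The study describes its 3 RNA-seq libraries per mouse line as biological replicates; its Ribo-seq methods may mean that the samples shared a litter, and the labels tie no library to an animal or litter, so P values measure the spread between these libraries. Members, gene lists and tests were chosen with earlier results of these data known. The rule for members named with values took the C-type genes, the highest gene of each group, the 3 smallest P values per group and comparison, and called members. In footprints, TE and the M-cKO RNA comparison only part of these are given singly, the rest by counts, medians and ranges. Beyond it, genes that illustrate a count were chosen after their values were seen.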

Additional observations from a re-analysis of the deposited data

Results flagged for a closer look

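M-cKO and F-cKO differed from each other, by a direct test of the difference in RNA-seq (edgeR, adjusted P below 0.05), in 7 of 54 members. Of these 2 were higher in M-cKO and 5 lower, against 13.1% and 14.3% of all genes. The log2 differences of M-cKO to F-cKO were 0.72 for Pcdhb8, 0.67 for Pcdhb22, -0.57 for Pcdhga4, -0.58 for Pcdhga6, -0.83 for Pcdhga9, -0.99 for Pcdhgb8 and -0.41 for Pcdhgc3, and all 3 libraries of each group were beyond those of the other for each of these genes. Pcdhgb8 was at 0.267, 0.257 and 0.284 FPKM in M-cKO and at 0.442, 0.498 and 0.662 FPKM in F-cKO. Its Ctrl values of 0.261, 0.480 and 0.405 FPKM overlapped both groups, and it had 24 to 66 reads per library.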

How the results depend on the processing

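Alternatives that kept all libraries changed these counts of called members. In RNA-seq F-cKO the members higher, 10 in the main test, were 3 with a replicate block and 5 with limma at a pseudocount of 0.1, beside 7.52% and 9.18% of all genes. The members lower, 1 in the main test, were 2 with DESeq2, 4 with no filter and 3 with all 9 libraries in a single fit, beside 9.73%, 6.9% and 9.85%. In RNA-seq M-cKO the members higher were 3 with no filter and 2 with all 9 libraries, beside 10.2% and 15.3%. In Ribo-seq M-cKO 0 were higher and 0 lower with all 9 libraries, beside 0.202% and 0.0419%. For TE in M-cKO 2 were higher with DESeq2, which called 567 of 13208 genes higher. By TE 0 were lower with all 18 libraries and 0 with a replicate block, which called 2 of 13264 and 70 of 13208 genes lower. As a share of summed FPKM, Pcdhgc3 made 24.5% of the gamma cluster and Pcdhb17 12.1% of the beta cluster in Ctrl RNA, and as a share of summed RPKM Pcdhb17 made 12.3% of beta footprints, compared with 25.8%, 13.4% and 13.7% by counts. The other 117 of these 132 values stayed within 1.5 times or 1 SD of the main value. The causes were not tested.

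Replicate numbers were not taken to pair the samples, and these values cannot decide whether they do. Correlations of same-numbered deviations were -0.14 to -0.02 in RNA-seq F-cKO and -0.08 to 0.16 in RNA-seq M-cKO, each with Ctrl. In Ribo-seq they were -0.28 to 0.15 in F-cKO, -0.02 to 0.14 in M-cKO and 0.01 to 0.16 in M-cKO against F-cKO. Pairing between RNA-seq and Ribo-seq libraries was not examined. With the replicate block the TE change in F-cKO turned negative for Pcdhgc3 (-0.17) and Pcdhac2 (-0.064), neither called. Over the clusters, uncalled throughout, the block moved the F-cKO medians of TE from 0.55 to 0.14 for gamma and from 0.11 to -0.10 for alpha genes, with 5 of 20 gamma, 2 of 19 beta and 7 of 10 alpha genes negative. It moved those of F-cKO footprints from 1.03 to 0.62 for gamma, 0.80 to 0.33 for beta and 0.29 to 0.12 for alpha genes, and those of M-cKO against F-cKO footprints from -1.12 to -0.58, -0.57 to -0.18 and -0.52 to -0.35.

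Leaving out 1 library gave 0 to 6 members higher and 1 to 3 lower in RNA-seq F-cKO, 1 to 2 higher and 0 to 3 lower in RNA-seq M-cKO, 1 to 4 higher and 2 to 5 lower in M-cKO against F-cKO, 0 to 1 in each direction in Ribo-seq M-cKO, and 0 to 1 in each direction for TE in M-cKO. The M-cKO to Ctrl ratio of RNA-seq reads ranged from 0.856 to 0.960 for beta and from 1.06 to 1.12 for gamma genes. Without Ribo-seq F-cKO replicate 2, 39 of 49 members were negative in F-cKO footprints. Among the members with the smallest P values and the C-type genes, signs turned for these uncalled log2 values, given with their range. In RNA-seq M-cKO they were Pcdhgc5 (-0.11 to 0.13) and Pcdhac1 (-0.11 to 0.31), and in M-cKO against F-cKO Pcdhac1 (-0.54 to 0.016). In Ribo-seq F-cKO they were Pcdhgc3 (-0.38 to 0.73), Pcdhgc4 (-0.26 to 1.16), Pcdhac2 (-0.13 to 0.81), Pcdhac1 (-0.60 to 0.36), Pcdha6 (-0.45 to 1.64), Pcdha7 (-0.32 to 0.78), Pcdhga7 (-0.11 to 2.30), Pcdhgb5 (-0.022 to 1.34) and Pcdhgb2 (-0.10 to 1.43). In Ribo-seq M-cKO Pcdhgc4 ranged from -0.0081 to 0.14, and in M-cKO against F-cKO Pcdhgc4 from -1.10 to 0.32, Pcdhac2 from -0.95 to 0.00034 and Pcdhac1 from -0.90 to 0.082. For TE in F-cKO they were Pcdhgc3 (-0.67 to 0.42), Pcdhgc4 (-0.50 to 0.90), Pcdhac2 (-0.43 to 0.48), Pcdha3 (-0.088 to 0.65), Pcdha2 (-0.073 to 0.55), Pcdhga1 (-0.057 to 2.15), Pcdhga2 (-0.010 to 1.59), Pcdhga4 (-0.32 to 1.60), Pcdhgb1 (-0.37 to 1.02), Pcdhgb7 (-0.41 to 0.90) and Pcdhgb4 (-0.50 to 0.83).

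Depth limits the members, since 29 of 58 had a mean below 100 reads in RNA-seq and 46 of 58 in Ribo-seq, so a missed threshold does not show equal levels.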
